A study of Mus musculus with 8 samples.

Results

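This account covers 9 genes of the interleukin-6 (IL-6) cytokine family and its signal chain in a mouse epicardial cell line: Cntfr, Lifr, Il6st, Osmr, Il6, Lif, Il11, Socs3 and Stat3, of 35275 genes in the deposited tables. They were taken by gene name, with earlier results of these data known: Cntfr was among the largest falls of the KO against EV comparison, and the others were listed beside it as cytokines, receptors and signal genes. The difference between KO and EV in these 9 genes is therefore given as a description, with its standard error and no p-value. All 9 had a row in the tables, and 8 had enough counts to be compared, Il11 being the exception.

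Messenger RNA was sequenced in 8 libraries of a cultured epicardial line that the labels call MEC or MCEC, grown in high-glucose medium with fetal bovine serum. In 4 libraries (EV) the cells had received an empty-vector lentivirus, and in 4 (KO) a lentivirus carrying a guide RNA for CRISPR/Cas9 knockout of Hdac3, a histone deacetylase of corepressor complexes. Both groups had thus been transduced, and the labels do not say whether the KO cells are a pool or 1 clone, or whether replicates were separate cultures, so p-values measure only the spread between these libraries. KO replicate 1 is titled KO while its characteristics name the empty vector; libraries were grouped by title, and the main values are also given without it. Totals ran from 18063745 to 24564892 counts per library, and a count of 3 corresponded to 0.125 to 0.164 CPM (the count scaled to a common library size, with TMM correction for composition). Hdac3 stood at 60.3 to 64.0 CPM in EV and 56.9 to 63.9 CPM in KO, which does not check the labels, since a Cas9 edit need not lower the transcript. Of 18 epicardial and mesothelial markers, 17 had enough counts to be tested and Aldh1a2 was below 1 CPM in every library. Their summed level was 6848 to 7245 CPM in EV and 6702 to 6875 CPM in KO, but single markers went both ways. The 4 that rose were Krt8 (1.66 in log2 units), Krt19 (1.01), Krt18 (0.54) and Msln (0.44). The 6 that fell included Tcf21 (−0.74) and Wt1 (−0.37). KO replicates 2 and 3 carried the most liver transcripts (20 markers summed to 33.8 and 33.0 CPM), and main values are given without these 2 as well. The liver sum was 21.2 and 16.9 CPM in KO replicates 1 and 4 and 13.0 to 15.3 CPM in EV. Every KO library was thus above every EV library, also with those 2 left out, and 18 of the 20 markers had the higher mean in KO. Summed marker levels of other cell types also differed between the groups: fibroblast genes (26240 to 28260 CPM in EV, 34760 to 36220 CPM in KO, a sum made up mostly of Col1a1, Col1a2 and Col3a1, while of 8 markers tested 4 rose and 4 fell, among them Postn by −1.61 and Fbln1 by −0.89 in log2 units), endothelial genes (26.8 to 29.9 and 19.7 to 21.9 CPM, with Pecam1, Cdh5 and Vwf below 1 CPM throughout) and cardiomyocyte genes (145 to 158 and 113 to 130 CPM, with Nppa at 0). The endothelial sum was mostly Kdr, and of 3 markers tested 2 fell (Kdr by −0.58, Robo4 by −1.44) and 1 rose (Tek by 0.42). The cardiomyocyte sum was nearly all Tnnt2 (means of 145 CPM in EV and 115 CPM in KO, −0.33 in log2 units). Of 4 cardiomyocyte markers tested, 0 rose and 1 fell, and 5 of 10 had the higher mean in KO. The part of these cell types in the results was not tested.

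Cytokines of this family signal through gp130, the receptor chain encoded by Il6st. A cytokine first meets its own receptor (Il6ra for interleukin-6, Il11ra1 for interleukin-11, Cntfr for ciliary neurotrophic factor), and gp130 then pairs with itself or with the chains encoded by Lifr or Osmr. Cntfr has no signalling domain of its own: it is held in the membrane by a glycolipid anchor and brings its ligands to gp130 and the leukaemia inhibitory factor receptor. Janus kinases bound to these chains phosphorylate STAT3, which enters the nucleus and induces target genes, among them Socs3, whose product binds gp130 and shuts the signal off. In the heart the family is known for its effects on muscle cell growth and survival and, for interleukin-11, on fibroblasts.

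Promoter sequence is shown for the member with the largest fall, Cntfr, and for the one with the largest rise, Socs3. RefSeq (GRCm38.p6, the same assembly as mm10) lists 16 starts for the 9 genes, and all 9 matched. Both sequences are the 250 bases before a start, 5′ to 3′ on the gene's strand, which is the minus strand for both genes. For Cntfr the first listed of its 6 starts is shown, chr4:41695454-41695703, and for Socs3 its single start, chr11:117969367-117969616. Capitals mark the motif TTCNNNGAA, the half-sites that STAT proteins bind, which reads the same on both strands.
Cntfr: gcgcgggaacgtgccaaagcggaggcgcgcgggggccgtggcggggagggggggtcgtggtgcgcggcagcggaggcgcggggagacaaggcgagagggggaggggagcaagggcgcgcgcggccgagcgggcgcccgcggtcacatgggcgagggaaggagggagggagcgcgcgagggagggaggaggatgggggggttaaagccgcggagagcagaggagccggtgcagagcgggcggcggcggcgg
Socs3: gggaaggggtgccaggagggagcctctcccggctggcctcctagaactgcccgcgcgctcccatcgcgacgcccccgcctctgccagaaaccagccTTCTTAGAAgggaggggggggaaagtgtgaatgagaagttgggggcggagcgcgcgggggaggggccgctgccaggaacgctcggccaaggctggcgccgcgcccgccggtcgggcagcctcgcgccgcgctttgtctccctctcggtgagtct
The Socs3 window held the motif once, as TTCTTAGAA beginning 154 bases before the start. None of the other 15 windows of the 9 genes held these letters, and 7.02% of all 32851 windows of this length did. A match of letters is a description and does not show binding. CpG dinucleotides varied between the starts of 1 gene. The Cntfr window shown held 37, and its other 5 windows held 36, 36, 17, 10 and 3. The Lifr windows held 43 and 3, those of Il6st and Socs3 26 each, Osmr 18, Stat3 13, Lif 6, Il6 3 and Il11 1 and 12. The median over all windows was 6.

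Cntfr was lower in every KO library than in any EV library. The gene (ENSMUSG00000028444, mm10 chromosome 4, 41657498 to 41697089) had 143, 191, 158 and 151 counts in the EV libraries, by replicate number, and 28, 30, 24 and 44 counts in the KO libraries. Scaled to library size these were 7.84, 8.35, 7.31 and 7.17 CPM in EV and 1.49, 1.47, 1.03 and 1.83 CPM in KO. The groups did not overlap, and the highest KO library lay far under the lowest EV library. Mean levels were 7.67 ± 0.538 and 1.46 ± 0.325 CPM (SD, n = 4 each), 5.25-fold lower in KO, a log2 fold change of −2.39 (SE 0.163). Without KO replicate 1 it was −2.40 and without KO replicates 2 and 3 −2.19. In bulk RNA, fewer cells that express a gene and less of its RNA per cell cannot be told apart. No gene of the tables overlaps Cntfr. Cntfr is best known from neurons. The 10 neuron and glia markers summed to 3.89 to 5.92 CPM in EV and 5.91 to 7.27 CPM in KO, ranges that overlapped and were made up mostly of Tubb3 and Map2, with Snap25 and Aqp4 at 0 in all 8 libraries. Of 3 of these markers tested, 1 rose, Tubb3, by 0.99 in log2 units (SE 0.233, edgeR adjusted p = 0.00393), and 0 fell. The part of neuron and glia transcripts in the result was not tested.

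Lifr and Il6st, the chains that Cntfr recruits, did not share this fall. Il6st, the common signalling chain (ENSMUSG00000021756, chromosome 13, 112464070 to 112510086), was at 285, 281, 308 and 306 CPM in the EV libraries, by replicate number, against 365, 389, 368 and 382 CPM in the KO libraries. All 4 KO libraries lay above all EV libraries. The means were 295 ± 13.9 and 376 ± 11.2 CPM (SD, n = 4 each), 1.27-fold higher in KO, a log2 fold change of 0.35 (SE 0.0451), or 0.36 without KO replicate 1 and 0.34 without KO replicates 2 and 3. Lifr, which binds leukaemia inhibitory factor (ENSMUSG00000054263, chromosome 15, 7129559 to 7197489), was at 94.6, 90.7, 93.3 and 108 CPM in EV and at 82.4, 102, 87.1 and 95.4 CPM in KO. The groups overlapped, EV replicate 4 being the highest library and KO replicate 1 the lowest, with a log2 fold change of −0.07 (SE 0.0659).

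Osmr encodes the chain that pairs with gp130 for oncostatin M (ENSMUSG00000022146, chromosome 15, 6813577 to 6874969). It was at 94.8, 96.8, 101 and 116 CPM in the EV libraries, by replicate number, against 120, 119, 122 and 120 CPM in the KO libraries. The KO libraries lay close together and above the EV libraries, of which EV replicate 4 came nearest to them. Means were 102 ± 9.56 and 120 ± 1.01 CPM (SD over 4 libraries each), a log2 fold change of 0.23 (SE 0.0560), also 0.23 without KO replicate 1 and without KO replicates 2 and 3. In the authors' FPKM values, which are not scaled for composition, EV replicate 4 (21.6) reached the KO range (21.3 to 21.7) and the groups overlapped. Osmr and Lifr are neighbours on chromosome 15, 255 kb apart with no other gene of the tables between them.

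**Figure D1:**
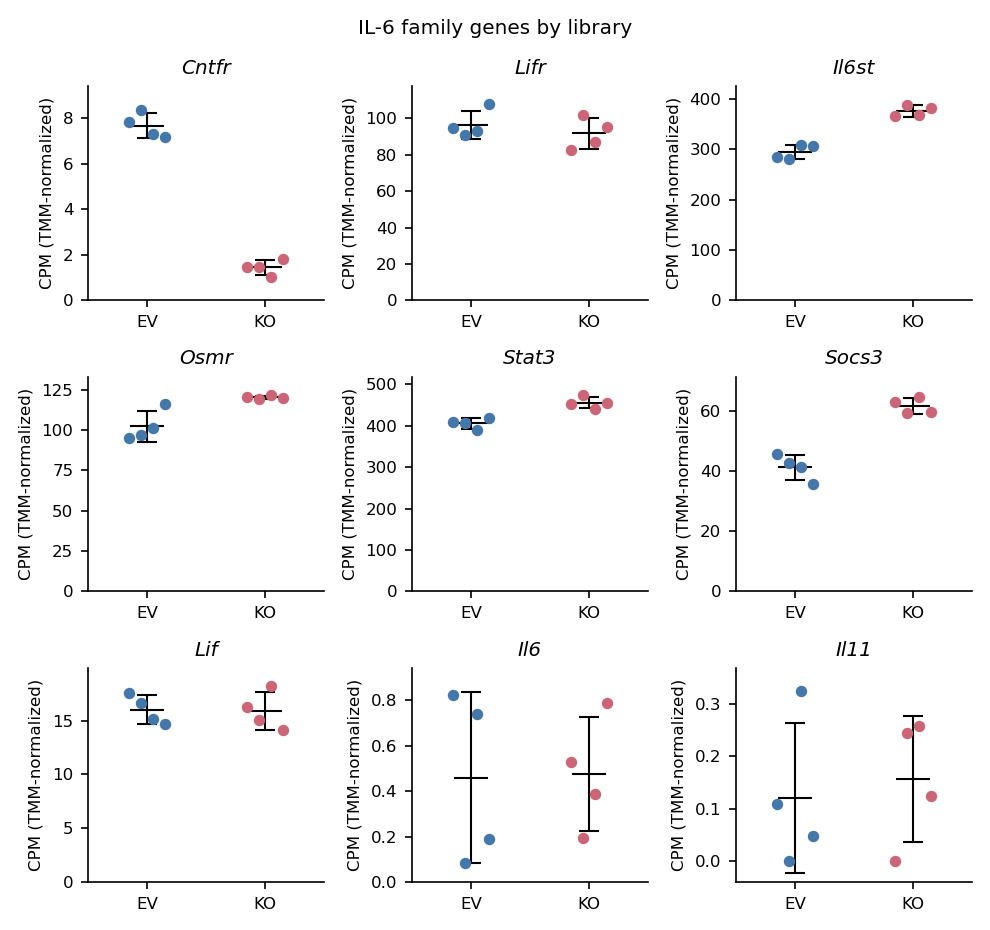
TMM-normalized CPM (vertical axes, linear) of the 9 genes in each EV (blue) and KO (red) library; points are libraries, horizontal bars the mean and whiskers 1 SD (n = 4). Cntfr falls from 7.67 to 1.46 CPM, Il6st, Osmr, Stat3 and Socs3 sit higher in all KO libraries, and Lifr, Lif, Il6 and Il11 overlap between the groups.

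Stat3, the transcription factor of the pathway (ENSMUSG00000004040, chromosome 11, 100885098 to 100939540), was the most abundant of the 9 genes. Its level was 409, 408, 389 and 420 CPM in the EV libraries, by replicate number, and 453, 475, 442 and 455 CPM in the KO libraries, a small difference with no overlap between the groups. Means were 406 ± 12.8 and 456 ± 14.0 CPM (SD over 4 libraries each), a log2 fold change of 0.17 (SE 0.0430), and 0.17 without KO replicate 1. With library totals alone it was 0.12, and there and in FPKM (0.12 with either pseudocount) Stat3 was not past the threshold. Its interval overlaps that of Stat5a on the opposite strand by 72 bases.

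Socs3, the feedback inhibitor whose promoter window is shown above (ENSMUSG00000053113, chromosome 11, 117966079 to 117970047), had the largest rise among the 9. It stood at 45.8, 42.5, 41.2 and 35.7 CPM in the EV libraries, by replicate number, against 62.9, 59.2, 64.5 and 59.7 CPM in the KO libraries. The groups were well apart, with EV replicate 4 the lowest. Means were 41.3 ± 4.18 and 61.6 ± 2.57 CPM (SD, n = 4 each), 1.49-fold higher in KO, a log2 fold change of 0.58 (SE 0.0665), or 0.57 both without KO replicate 1 and without KO replicates 2 and 3. Per length, the ratio of Socs3 to Stat3 FPKM was 0.241 ± 0.0278 in EV and 0.320 ± 0.0221 in KO (SD, n = 4 each).

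The 3 cytokine genes of the set showed no separation of the groups. Lif, leukaemia inhibitory factor (ENSMUSG00000034394, chromosome 11, 4257557 to 4272514), was at 17.5, 16.7, 15.2 and 14.7 CPM in the EV libraries, by replicate number, against 16.3, 15.04, 18.2 and 14.1 CPM in the KO libraries. Its log2 fold change was −0.008 (SE 0.0937), and its sign changed with the library left out, from −0.08 without KO replicate 3 to 0.05 without KO replicate 4. Il6 (ENSMUSG00000025746, chromosome 5, 30013161 to 30019968) had 15, 2, 16 and 4 counts in EV and 10, 4, 9 and 19 counts in KO. Libraries of 1 group differed several-fold, and the log2 fold change of 0.12 had an SE of 0.543, so no difference was detectable at this depth. Il11 (ENSMUSG00000004371, chromosome 7, 4773055 to 4782857) had 2, 0, 7 and 1 counts in EV and 0, 5, 6 and 3 counts in KO, at or near the level that 3 counts allow, and was not tested.

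The 8 genes with enough counts were also part of the edgeR fit across all genes. There, at an adjusted p of 0.05, 4 lay past the threshold on the higher side (Il6st, Osmr, Stat3 and Socs3), 1 on the lower side (Cntfr) and 3 not past it (Lifr, Lif and Il6), which describes genes chosen with this comparison known and is no test of them. Over all 12801 genes tested, 26.0% were past the threshold, 12.6% higher (1613 genes) and 13.4% lower (1711 genes). With library totals alone the split was 1039 higher and 2414 lower. The median log2 fold change was 0.14 over the 8 genes and 0.005 over all genes. Nothing is read from the count of the 8.

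Levels of different genes can be set side by side only per transcript length, in FPKM. In EV the order was Stat3 (68.4 ± 2.46 FPKM), Il6st (34.6 ± 1.57), Osmr (18.9 ± 1.82), Socs3 (16.5 ± 1.62), Lifr (10.2 ± 0.821), Lif (4.04 ± 0.331), Cntfr (3.91 ± 0.291), Il6 (0.428 ± 0.348) and Il11 (0.0960 ± 0.114; SD, n = 4 each). Neighbours whose libraries overlapped in EV were Osmr and Socs3, Lif and Cntfr, and Il6 and Il11. In KO, Socs3 (23.7 ± 0.951 FPKM) stood above Osmr (21.5 ± 0.149) with no overlap, and Cntfr (0.716 ± 0.160) had come down to overlap Il6 (0.430 ± 0.225; SD, n = 4 each).

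The balance between the Cntfr chain and its partners differed accordingly. For each unit of Cntfr FPKM there were 8.91 ± 1.02 units of Il6st in EV and 61.8 ± 14.3 in KO, and 2.62 ± 0.365 units of Lifr in EV and 13.5 ± 3.01 in KO (SD, n = 4 each). These ratios repeat the fall of Cntfr and are no separate result. Between the 2 partners, Il6st per Lifr was 3.41 ± 0.216 in EV (3.16 to 3.68) and 4.58 ± 0.298 in KO (4.24 to 4.93), and Osmr per Lifr was 1.86 ± 0.0655 in EV and 2.32 ± 0.230 in KO. In both ratios every KO library lay above every EV library, although Osmr FPKM alone overlapped between the groups. Both restate the levels of Il6st, Osmr and Lifr given above and are no separate result either.

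The other genes of the pathway were put in lists outside the 9, also chosen with earlier results known. Of 10 other ligand genes, 3 were tested, and 1 rose and 1 fell (66.7% of only 3 genes, against 26.0% of all genes). The one that rose, cardiotrophin-like cytokine, Clcf1, is a ligand of Cntfr. Clcf1 was at 9.75, 10.4, 9.12 and 8.97 CPM in the EV libraries, by replicate number, against 14.5, 12.4, 15.8 and 12.9 CPM in the KO libraries. The groups did not overlap, and it rose by 0.54 on the log2 scale (SE 0.101, edgeR adjusted p = 0.000522; 0.47 to 0.59 with 1 library left out).

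The remaining ligands were low or did not pass the test. Cntf itself, ciliary neurotrophic factor, had 0 to 5 counts in a library and shares its interval with Zfp91 on the same strand. Cardiotrophin 1, Ctf1, another ligand of the leukaemia inhibitory factor receptor, was at 13.1 ± 1.57 CPM in EV and 14.5 ± 0.739 CPM in KO (SD, n = 4 each; edgeR adjusted p = 0.276). Oncostatin M, Osm, whose gene lies 16.5 kb from Lif, had 0 counts in all 8 libraries, which allows up to 3 counts in each.

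**Figure D2:**
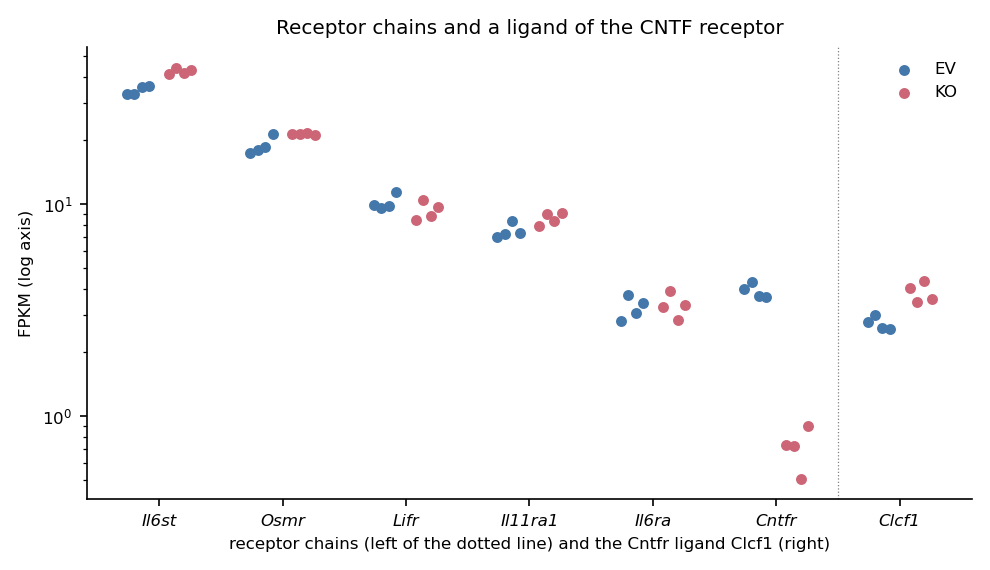
FPKM of receptor chains and of the ligand Clcf1 (log axis) in each EV (blue) and KO (red) library; points are libraries, with receptor chains left of the dotted line. Cntfr drops from 3.91 to 0.716 FPKM, below Il6ra, while Il6st lies between 33.2 and 44.2 FPKM in all libraries.

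Among 9 other receptor chains, 5 were tested, 1 rose and 1 fell (40.0% of only 5 genes, against 26.0% of all genes). Il11ra1, the interleukin-11 receptor, rose from 19.1 ± 1.57 to 22.7 ± 1.497 CPM (SD over 4 libraries each), or 0.25 in log2 units (SE 0.0789; edgeR, adjusted p = 0.0260). The groups overlapped, since EV replicate 3 (21.4 CPM) was above KO replicate 1 (20.9 CPM). The call was lost with library totals alone and in FPKM (0.20 and 0.18 to 0.20), without EV replicate 1 (0.22), EV replicate 2 (0.23), KO replicate 2 (0.23) or KO replicate 4 (0.22), and without KO replicates 2 and 3 (0.24). Il12rb1, an interleukin-12 receptor chain at 1.78 ± 0.394 CPM in EV and 1.03 ± 0.143 CPM in KO (SD, n = 4 each), fell (log2 fold change −0.77, SE 0.248, edgeR adjusted p = 0.0275). It was no longer called without EV replicate 2 (−0.76), EV replicate 3 (−0.66), KO replicate 1 (−0.70) or KO replicate 3 (−0.75), or without KO replicates 2 and 3 (−0.80). Il6ra, the interleukin-6 receptor, was at 10.7 ± 1.21 and 11.4 ± 1.43 CPM (SD, n = 4 each; edgeR adjusted p = 0.619).

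Il11ra1 begins 2.90 kb from the Cntfr start, on the opposite strand, with no gene between. To see whether the fall of Cntfr extended to its surroundings, the genes within 500 kb on either side were listed, a choice made after values were seen. Of 41 such genes, 13 were tested beside Cntfr: 2 rose, 1 fell and 10 did not pass the test, with log2 fold changes from −0.22 to 0.25 and a median of 0.07. For comparison, 26.0% of all genes tested were past the threshold. Il11ra1 was among the neighbours that rose, and the neighbour AI464131 fell (−0.22, SE 0.0792, edgeR adjusted p = 0.0454). The call of AI464131 was lost in DESeq2 (−0.22) and on leaving out any 1 library (−0.25 to −0.19). None came near the −2.39 of Cntfr. The deposited interval of Il11ra1 overlaps Dctn3, among others, on the opposite strand and Galt on the same strand, so reads may be shared.

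**Figure D3:**
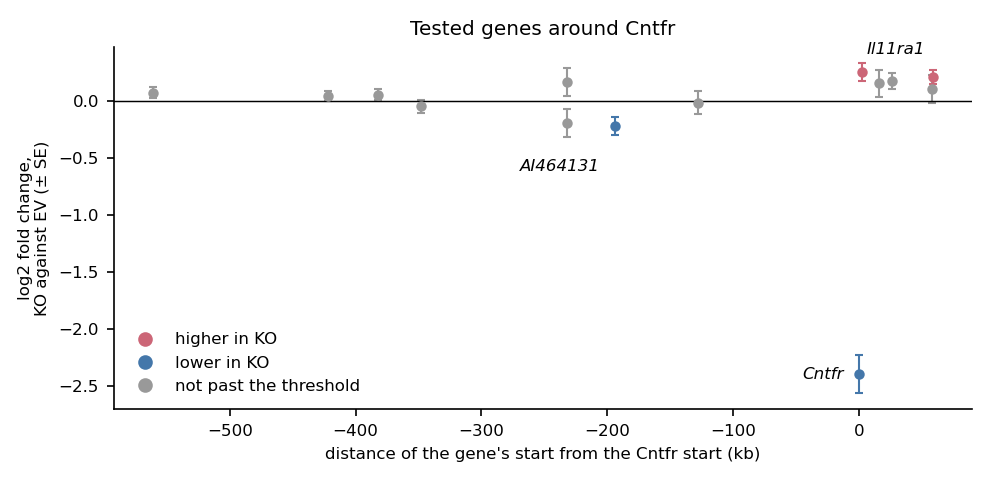
Log2 fold change of KO against EV (vertical axis, whiskers 1 SE) for Cntfr and the 13 other tested genes around it, by distance in kb from the Cntfr start (horizontal axis); colours mark genes past an adjusted p of 0.05. Cntfr lies at −2.39 while the other genes lie between −0.22 and 0.25.

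Of 9 Janus kinases and other STATs tested, 1 rose and 1 fell, 22.2% past the threshold against 26.0% of all genes. Jak1, the main kinase of gp130, was at 157 ± 8.53 CPM in EV and 158 ± 2.71 CPM in KO, and Jak2 at 76.0 ± 7.51 and 74.8 ± 2.52 CPM (SD, n = 4 each), 2 genes named after their values were seen. Stat5a rose by 0.38 on the log2 scale (SE 0.0856, edgeR adjusted p = 0.00276), from 14.8 ± 1.56 to 19.3 ± 0.786 CPM (SD, n = 4 each), with no overlap between the groups. The Stat5a interval overlaps that of Stat3 (406 CPM in EV, 456 CPM in KO) by 72 bases on the opposite strand, so reads may be shared.

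Of 16 feedback and attenuation genes tested beside Socs3, 1 rose and 2 fell, 18.8% past the threshold against 26.0% of all genes. Ptpn2, a phosphatase that acts on Janus kinases and STATs, fell from 35.1 ± 2.12 to 29.5 ± 1.47 CPM (SD, n = 4 each; log2 fold change −0.25, SE 0.0651, edgeR adjusted p = 0.00818), a call lost without KO replicates 2 and 3 (−0.23). Pias2, of the protein inhibitors of activated STATs, fell by 0.16 on the log2 scale (SE 0.0525, edgeR adjusted p = 0.0333), which did not hold without any one of EV replicates 2 or 4 or the KO replicates (−0.16 to −0.13). Ndufa13, a subunit of respiratory complex I that can bind STAT3, rose by 0.33 in log2 units (SE 0.102; edgeR, adjusted p = 0.0225), not called in DESeq2 (0.33), in FPKM (0.28 to 0.29), on leaving out KO replicate 1 (0.28) or 3 (0.28) or EV replicate 3 (0.27), or without KO replicates 2 and 3 (0.32). Other suppressors of cytokine signalling did not pass in the main fit and leaned both ways. All were named after their values were seen. Socs5 was at 157 CPM in both groups. Socs1 and Cish had log2 fold changes of 0.46 (SE 0.191, edgeR adjusted p = 0.0874) and 0.66 (SE 0.243, edgeR adjusted p = 0.0511). Socs2 was at −0.21 (SE 0.0919, edgeR adjusted p = 0.105), Socs4 at 0.13, Socs6 at 0.002 and Socs7 at −0.025. Cish passed with limma-voom (0.74), with no filter or 1 CPM in 4 libraries (0.66), with the replicate block (0.69) and without EV replicate 1 (0.82) or 3 (0.78), and Socs1 without KO replicate 4 (0.57).

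Adaptors and kinases that carry the signal from gp130 to the MAP kinase and PI3 kinase routes were tested for 17 genes, of which 2 rose and 2 fell. That is 23.5% past the threshold, against 26.0% of all genes. Mapk3, a MAP kinase, fell (−0.18, SE 0.0523, edgeR adjusted p = 0.0176), but not without EV replicate 3 (−0.16) or KO replicate 2 (−0.125), or without KO replicates 2 and 3 (−0.13). Akt1 rose by 0.17 on the log2 scale (SE 0.0481, edgeR adjusted p = 0.0135), a call lost with library totals alone or in FPKM (0.12), without KO replicate 3 (0.14) and without KO replicates 2 and 3 (0.17). With library totals alone the list had 0 rises and 5 falls.

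Genes known to be induced through STAT3 changed in both directions. Of 29 tested, 13 rose, 5 fell and 11 did not pass, 62.1% past the threshold against the 26.0% of all genes, with a median log2 fold change of 0.13. With KO replicates 2 and 3 left out, 13 rose and 5 fell, and without KO replicate 1, 13 rose and 4 fell. Most of these genes respond to other pathways too, and some were already known from earlier results of these data. Neither their direction nor their share past the threshold is therefore independent evidence of STAT3 activity. All called genes are described here, of which Ccnd1, Egr1 and Serpina3n were named by rule and the others after their values were seen.

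Several of the genes that rose are growth or immediate early genes. Cyclin D1, Ccnd1, was at 26.9 ± 2.40 CPM in EV and 56.4 ± 6.11 CPM in KO (SD over 4 libraries each), or 1.07 in log2 units (SE 0.0796; edgeR, adjusted p = 7.40e-09). Egr1, an immediate early transcription factor, rose from 71.3 ± 2.81 to 121 ± 10.3 CPM (SD, n = 4 each; 0.76, SE 0.0582, edgeR adjusted p = 1.21e-08). Other transcription factors rose with them: Klf4 by 1.19 on the log2 scale, Bcl3, a partner of NF-kappaB, by 0.77, Fos by 0.58, Junb by 0.51, Cebpd by 0.51 and Bcl6 by 0.32. The kinase gene Pim1 (0.43), the angiogenic factor Vegfa (0.53), the protease inhibitor Timp1 (0.33) and the membrane protein Ifitm3 (0.31) rose as well.

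Serpina3n, an acute phase protease inhibitor, had the largest rise in this list. It was at 1.92, 3.23, 2.96 and 3.56 CPM in the EV libraries, by replicate number, against 10.9, 10.7, 13.6 and 10.2 CPM in the KO libraries, with no overlap (log2 fold change 1.95, SE 0.154, edgeR adjusted p = 1.79e-08). Liver also makes it, and the 20 liver markers summed to 13.0 to 15.3 CPM in EV and to 21.2, 33.8, 33.0 and 16.9 CPM in KO replicates 1 to 4. Within KO, Serpina3n was highest in KO replicate 3 (13.6 CPM). KO replicate 2, with the most liver transcripts, had 10.7 CPM of Serpina3n. KO replicates 1 and 4, with fewer liver transcripts, had 10.9 and 10.2 CPM. The part of liver transcripts in the result was not tested.

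The genes that fell included other acute phase and inflammatory genes. Saa3, serum amyloid A3, was at 88.8, 149, 95.0 and 97.8 CPM in the EV libraries, by replicate number, against 60.7, 60.4, 64.6 and 49.1 CPM in the KO libraries. EV replicate 2 stood above the others, and the groups did not overlap (log2 fold change −0.88, SE 0.122, edgeR adjusted p = 2.20e-05). The adhesion molecule Icam1 (−1.16, SE 0.150), haptoglobin, Hp (−0.62, SE 0.132), and, with overlapping groups, the lipopolysaccharide co-receptor Cd14 (−0.28, SE 0.0860, edgeR adjusted p = 0.0226) fell. The call of Cd14 was lost on leaving out EV replicate 2 or 3 or KO replicate 1, 2 or 4 (−0.27 to −0.22), and in FPKM with no filter (−0.31), where those of Bcl6 (0.20), Timp1 (0.29) and Ifitm3 (0.26) were lost too. Hp is also one of the liver markers. Birc5, which is also a gene of mitosis, fell by 0.46 on the log2 scale (SE 0.0633). Myc, Mcl1 and Bcl2l1 did not pass the test, at log2 fold changes of −0.004, 0.05 and −0.01. The 10 macrophage and blood markers summed to 6.30 to 7.64 CPM in EV and 9.94 to 11.2 CPM in KO, mostly Cd68; Ptprc had 0 or 1 count in each library, and Emr1 and Tyrobp were at 0 in all 8 libraries. Their part in these results was not tested.

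**Figure D4:**
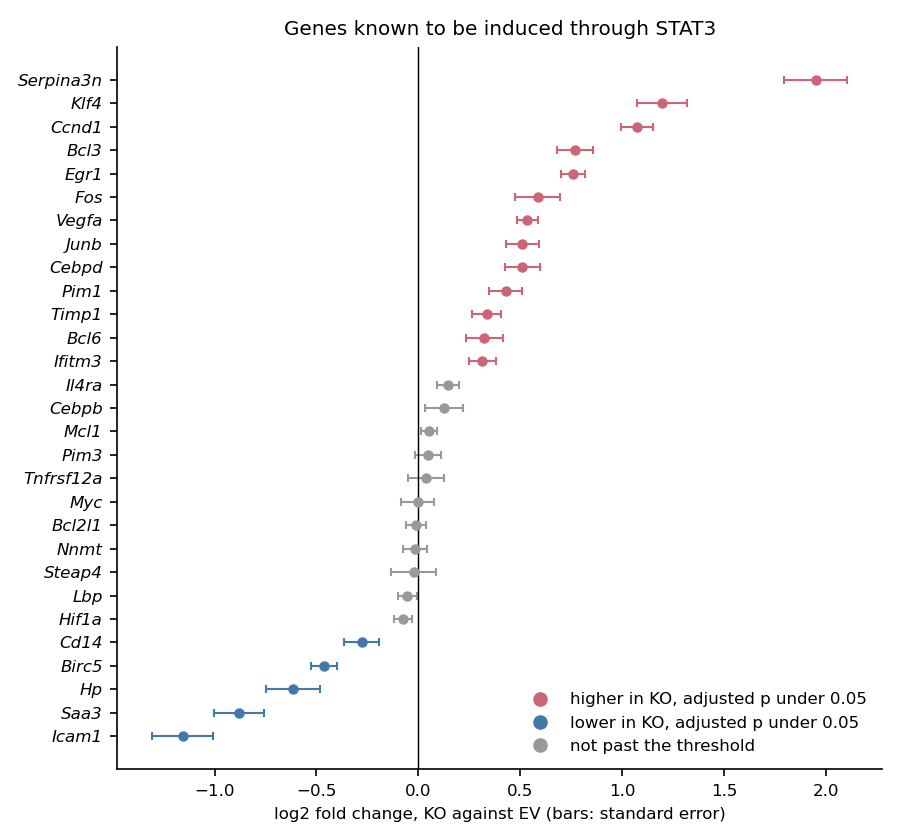
Log2 fold change of KO against EV (horizontal axis, whiskers 1 SE) for the 29 tested genes known to be induced through STAT3, sorted by value; red and blue mark genes past an adjusted p of 0.05. Serpina3n (1.95), Klf4 (1.19) and Ccnd1 (1.07) lie at the top and Icam1 (−1.16) and Saa3 (−0.88) at the bottom.

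The promoter motif shown for Socs3 was also looked for in this list. Of its 27 genes matched in the RefSeq table, 4 had TTCNNNGAA in the 250 bases before a start (Bcl6, Fgb, Steap4 and Icam1), against 8.13% of 27025 genes. Bcl6 rose, Icam1 fell, Steap4 did not pass the test and Fgb had too few counts for it.

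Across the 8 libraries, the 5 genes whose log2 CPM followed that of Cntfr most closely, of 9939 candidates with at least 5 CPM in the higher group, were Aurkb (Pearson r = 0.995), Cacna1g (0.994), Esyt2 (0.993), Tpx2 (0.993) and Nos1ap (0.992). The libraries form 2 groups, so these values mostly restate that each gene was lower in KO, by log2 fold changes from −0.92 (Nos1ap) to −0.14 (Esyt2), and they are given as a description. Aurkb and Tpx2 act in mitosis, and Cacna1g encodes a calcium channel.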

How the data were processed

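RNA of 4 EV and 4 KO libraries was sequenced. The authors deposited raw counts per gene for 35275 genes and FPKM values for the same genes; per the submitters' processing notes the build was mm10 and DESeq 1.6.3 was used. Aligner, counter, annotation and strandedness: not given in the sources used here, so genes overlapping on opposite strands may share reads. The deposited FPKM equal count over gene length over library total in 100% of nonzero values (relative tolerance 1e-06), with no correction for composition.

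The main fit was edgeR 4.0.16 in R 4.3.3 on the counts: TMM, filterByExpr defaults (minimum count 10, minimum total 15), quasi-likelihood F test, two-sided, Benjamini-Hochberg adjustment over 12801 genes, threshold 0.05. The standard error is the log2 fold change divided by the square root of F. The fit was tested on simulated counts. Alternatives were DESeq2 1.42.0, limma 3.58.1 (voom, and log2(FPKM + 1) or log2(FPKM + 0.1) with and without a filter of 0.5 FPKM in 4 libraries), other scalings and filters, the replicate number as a block, and libraries left out. No 2 replicates of a group were alike within sampling noise (chi-square over its degrees of freedom, 4.01 to 13.2). The 9 genes and all lists were chosen with earlier results of these data known. From each pathway list the rule named up to 3 called genes with the smallest adjusted p, or the most abundant where none was called, and the 5 genes most correlated with Cntfr. Grim19 is an older symbol of Ndufa13, and Adgre1 has its row as Emr1. Some genes that the rule named are not reported here, though list counts include them.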

Additional observations from a re-analysis of the deposited data

How the results depend on the processing

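The values of the 9 genes under other settings are given as a description, since the genes were chosen with this comparison known. Cntfr was at −1.52 with a pseudocount of 1 FPKM, which compresses low genes, and at −2.19 without KO replicates 2 and 3; Il6st was at 0.29 with that pseudocount; Stat3 was at 0.12 with library totals and in FPKM. Genes higher in KO numbered 1039 with library totals, 896, 897 and 766 in FPKM (pseudocount 1, pseudocount 0.1, and 1 without a filter) and 880 without KO replicates 2 and 3, when 1094 were lower. Other receptor chains had 0 rises with library totals, in FPKM and without KO replicates 2 and 3, and 0 falls in filtered FPKM and without those 2 libraries. The feedback list had 0 rises in DESeq2, in FPKM and without KO replicates 2 and 3, 2 rises with limma-voom, with no filter or 1 CPM in 4 libraries, and 0 falls without those 2 libraries. Adaptors and kinases had 0 rises with library totals, in FPKM and without KO replicates 2 and 3, and 5, 4 and 1 falls with library totals, in filtered FPKM and without those libraries; Janus kinases and STATs then had 0 falls. With 1 library left out, rises and falls ranged from 1 to 1 and 0 to 1 (other ligands), 0 to 1 and 0 to 1 (other receptor chains), 1 to 2 and 0 to 1 (Janus kinases and STATs), 0 to 2 and 1 to 2 (feedback) and 0 to 3 and 1 to 4 (adaptors and kinases). The cause of these shifts was not tested; fewer libraries also lower counts of calls. Deviations from the group mean were little correlated between same-numbered EV and KO libraries (0.121, −0.033, 0.060 and 0.086). The best-matching KO library was the same-numbered one for EV replicates 1, 3 and 4, and KO replicate 3 for EV replicate 2. Whether the replicate numbers pair the libraries cannot be told from these values, and the main fit did not pair them. With the replicate block 1879 genes were higher and 1858 lower, the Janus kinase and STAT list had 2 rises and the feedback list 2. Il6 had no value in the filtered FPKM fits or with 1 CPM in 4 libraries. Depth limits Il6, Il11, Cntf and Osm, which lie near or under 3 counts in some or all libraries.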

Other observations

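Low-count genes of the lists stood outside the test. Those given here were not named by the rule, and their counts lean to 1 group. Others did not lean so, such as Ptprt, with 0, 5, 11 and 9 counts in EV and 1, 8, 15 and 9 counts in KO. Lcn2, lipocalin 2, an acute phase gene, had 0, 0, 1 and 0 counts in the EV libraries and 5, 3, 3 and 3 counts in the KO libraries. Ctf2, cardiotrophin 2, which overlaps Ctf1 on the opposite strand, had 3, 7, 4 and 2 counts in EV and 0, 1, 3 and 0 counts in KO. The receptor for leptin, Lepr, had 0, 8, 3 and 4 counts in EV and 4, 9, 9 and 11 counts in KO. These values are given as counts only.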
